A study of Mus musculus with 35 samples.

Results

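The Reelin pathway was read here through 6 genes of the 53465 listed in the bulk table. They are the ligand *Reln*, the receptors *Lrp8* (ApoER2) and *Vldlr*, the adaptor *Dab1*, the kinase *Cdk5* and its activator *Cdk5r1* (p35). The genes were listed by name, with their levels in the sorted bulk populations and in the sort gates of the single cells already known. Those levels are therefore given as a description, with no test. The tests on these genes are limited to contrasts that their choice did not use, which are neurons against progenitors inside the neural gate and *Mof* knockout against wild-type cells.

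Reelin is a large secreted glycoprotein, made in the developing cortex mainly by Cajal-Retzius cells in the marginal zone. It binds ApoER2 and VLDLR, which cluster and lead to tyrosine phosphorylation of the adaptor DAB1 inside the receiving neuron, and this signal guides the layering of migrating neurons. CDK5 with its activator p35 is a neuronal serine/threonine kinase that acts on migration partly in parallel with Reelin and can phosphorylate DAB1.

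Bulk RNA-seq covered 12 libraries, 1 each of neural cells, endothelial cells, mural cells and microglia from each of 3 wild-type mouse brains at E14.5, called here the first, the second and the third brain. Single cells were sorted into wells and read by mCEL-Seq2, a 3′ method in which molecular identifiers stand for transcripts. They came from wild-type E14.5 brains (3 plates, 11 libraries, with a sort gate for each well) and from brains labelled Mof Knockout (3 plates, 12 libraries, with no gate used). The labels name no genotype for the first set, which was taken as wild type from the study's design. Of its libraries, 1 on plate 3 has unlike numbers in its title and its file, and its gates were matched by the number of the file. The sources used here give no strain or treatment for either genotype, nor the allele or driver of the *Mof* deletion. Neural cells were defined by the absence of all surface markers, so the gate takes progenitors, neurons and any other unmarked cell. Mural cells were taken as PDGFRβ high, endothelial cells as PECAM1 and CD102 positive, and microglia as CD45 medium with CD11b. For the microglial wells the deposited table gives CD41 positive in place of CD11b, whereas the study's methods name CD11b. RNA and libraries of neural cells were made with other kits (RNeasy and TruSeq) than those of the 3 rarer populations (miRNeasy, SMART-Seq v4 and Nextera XT), so that kit and neural population cannot be told apart in the bulk data.

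The bulk libraries held 17638358 to 98414914 reads on genes, and 1 read was worth 0.264 to 1.77 normalized counts. The defining markers fitted the labels, with the lists of mural cells, endothelial cells and microglia far above their level in the others. In the mural libraries 1 of the 9 neural progenitor markers, *Fabp7*, lay above the neural range, at 18397 to 34842 against 7006 to 8042 normalized counts. The other 8 summed to 4311 to 7973 there, against 34758 to 36721 in neural libraries. The mural libraries' 10 young neuron markers summed to only 3063 to 4563, against 104771 to 110589. In wells with more than 1500 transcripts there were 123 neural, 210 mural, 225 endothelial and 128 microglial cells, with median depths of 7717, 6885, 6408 and 10761 transcripts. By their markers, 15 of the 210 mural and 6 of the 225 endothelial cells were neural-like. The 192 well barcodes are shared between libraries by design, and no 2 wells held the same profile.

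The promoters of the ligand and of both receptors are shown because these 3 genes set the populations apart, with *Reln* and *Vldlr* high in neural cells alone and *Lrp8* highest in endothelial cells. RefSeq gives 3 windows for *Lrp8* and 2 for *Vldlr*, and the window with the highest GC content is shown. Each window runs from 250 bases before to 50 bases after a start annotated by RefSeq on GRCm38.p6, 5′ to 3′ on the gene's strand. RefSeq windows were matched for 4 of the 6 genes. Capitals mark the GC box GGGCGG, searched on both strands.
*Reln* (chr5:22344656-22344955, minus strand): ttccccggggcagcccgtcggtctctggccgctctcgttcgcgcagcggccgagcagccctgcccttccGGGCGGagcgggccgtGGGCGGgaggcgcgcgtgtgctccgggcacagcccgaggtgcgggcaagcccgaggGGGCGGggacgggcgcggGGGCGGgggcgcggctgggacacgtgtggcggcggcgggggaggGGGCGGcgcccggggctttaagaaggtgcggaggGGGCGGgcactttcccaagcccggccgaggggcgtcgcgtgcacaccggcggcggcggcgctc
*Lrp8* (chr4:107802635-107802934, plus strand): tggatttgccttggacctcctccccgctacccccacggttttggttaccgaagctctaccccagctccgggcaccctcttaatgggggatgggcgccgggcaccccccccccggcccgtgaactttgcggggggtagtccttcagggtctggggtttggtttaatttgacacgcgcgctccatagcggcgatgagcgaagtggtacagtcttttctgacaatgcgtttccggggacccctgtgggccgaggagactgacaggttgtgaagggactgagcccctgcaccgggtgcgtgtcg
*Vldlr* (chr19:27216770-27217069, plus strand): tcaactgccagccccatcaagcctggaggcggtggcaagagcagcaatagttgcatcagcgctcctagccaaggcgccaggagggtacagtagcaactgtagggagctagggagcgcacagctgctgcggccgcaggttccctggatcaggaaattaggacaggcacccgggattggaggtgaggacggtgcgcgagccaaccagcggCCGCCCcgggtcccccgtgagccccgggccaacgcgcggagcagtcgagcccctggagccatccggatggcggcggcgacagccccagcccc
The *Reln* window held 6 GC boxes and 47 CpG dinucleotides at a GC content of 80.7%, higher than in 99.2% of 32851 windows. The *Lrp8* window shown had no GC box and a GC content of 62.7%, and the *Vldlr* window shown had 1 GC box and 68.0%. The windows of these receptors not shown had no GC box, at 55% and 54% for *Lrp8* and 43% for *Vldlr*. The *Dab1* windows, not shown either, had a GC content of 57.3% with no GC box and of 77.3% with 1. Across all windows, 35.7% held a GC box and the median GC content was 52.7%. The other motifs searched were the ETS site CCGGAAGT, the CCAAT box and the TATA box TATAAA, found in 3.89%, 37.4% and 13.6% of all windows. In the 3 windows printed, the one of *Vldlr* held 1 CCAAT box and there was no other match. These are matches of letters, and no binding was measured.

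*Reln* (ENSMUSG00000042453, chromosome 5 of GRCm38, 21884454 to 22344702, minus strand) was a transcript of neural cells. The neural libraries of the first, the second and the third brain held 7218, 5788 and 8461 normalized counts. In the same order, mural cells held 0, 1.14 and 5.64, endothelial cells 0, 0 and 10.6, and microglia 3.57, 0 and 12.6. The neural libraries stood far above the other 9, which overlapped each other and rested on 7 to 13 reads per population. The neural mean was 7156 ± 1337 (SD, n = 3), and no ratio of means is given against values so near 0. The log2 difference given below for *Reln* depends on the pseudocount. In bulk samples such as these, fewer cells of a type and less RNA per cell cannot be told apart.

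In single cells, *Reln* was found in a minority of the neural gate. A transcript was found in 15 of 123 neural cells, or 12.2% (exact Clopper-Pearson 95% interval 6.99 to 19.3), and in 1 of 128 microglia, a type that should lack the gene. The summed level was 79.8, 83.0 and 43.8 counts per 1000000 transcripts (CPM) on plates 1, 2 and 3, where plate 3 rested on 1 cell with 4 transcripts. Among mural cells 2.38% had a transcript and among endothelial cells 0.889%. Without the cells whose markers did not match the gate, a choice made after seeing the data, 1 of 195 mural cells (0.513%) remained with *Reln*. When every cell was thinned to 1500 transcripts, 4.88% of neural cells had one. Such intervals cover counting error only.

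The cells with *Reln* differed widely in amount, from 1 to 25 transcripts with a median of 3, and 14 of the 15 had more neuron than progenitor marker signal, as had 89 of all 123 neural cells. Markers of Cajal-Retzius cells, the classical source of Reelin, were more frequent in them: at least 2 of the 7 measured markers were found in 7 of the 15 cells and in 18 of the other 108. Of the 8 markers listed, *Trp73* was absent from the single-cell values. The higher share of cells with at least 2 measured markers held for some other members too. It was 35.5% of cells with *Vldlr* against 15.2% of cells without, 32.1% against 16.8% for *Cdk5* and 27.1% against 5.26% for *Cdk5r1*. The shares lay closer for *Lrp8* (25% against 19.4%) and *Dab1* (20.9% against 20%). *Nhlh2*, a transcription factor of such neurons, was seen in 7 of 15 and 19 of 108, *Lhx1* and *Lhx5* each in 4 of 15 and 9 of 108, *Ebf3* in 5 of 15 and 20 of 108 and *Cacna2d2* in 3 of 15 and 11 of 108. The other markers ran the other way, with *Barhl2* in 0 of 15 and 6 of 108 and *Calb2* in 0 of 15 and 1 of 108. The cells with *Reln* were somewhat deeper, at a median of 8782 against 7648 transcripts. Cells are not replicates, and no test was made of these shares. Markers of other neurons differed little between the sets, with at least 2 GABAergic markers in 4 of the 15 cells and 25 of the 108, and at least 2 cortical excitatory markers in 7 of the 15 and 45 of the 108.

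*Lrp8* (ENSMUSG00000028613, chromosome 4, 107802261 to 107876840, plus strand), the receptor ApoER2, was highest outside the neural population. Endothelial cells held 22480, 20732 and 16801 normalized counts in the first, the second and the third brain, and neural cells 8401, 7812 and 9392. Mural cells held 77.3, 235 and 85.5 and microglia 27.3, 202 and 151. The endothelial libraries lay above all neural ones and the neural ones above all others, while mural cells and microglia overlapped. The endothelial mean of 20005 ± 2909 (SD, n = 3) was 2.34 times the neural mean and 151 times the mural mean. An antisense gene, *Lrp8os2*, overlaps *Lrp8* with a mean of 318 normalized counts, and since the strand setting of the counting was not given in the sources used here, reads of the pair cannot be assigned with certainty.

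**Figure D1:**
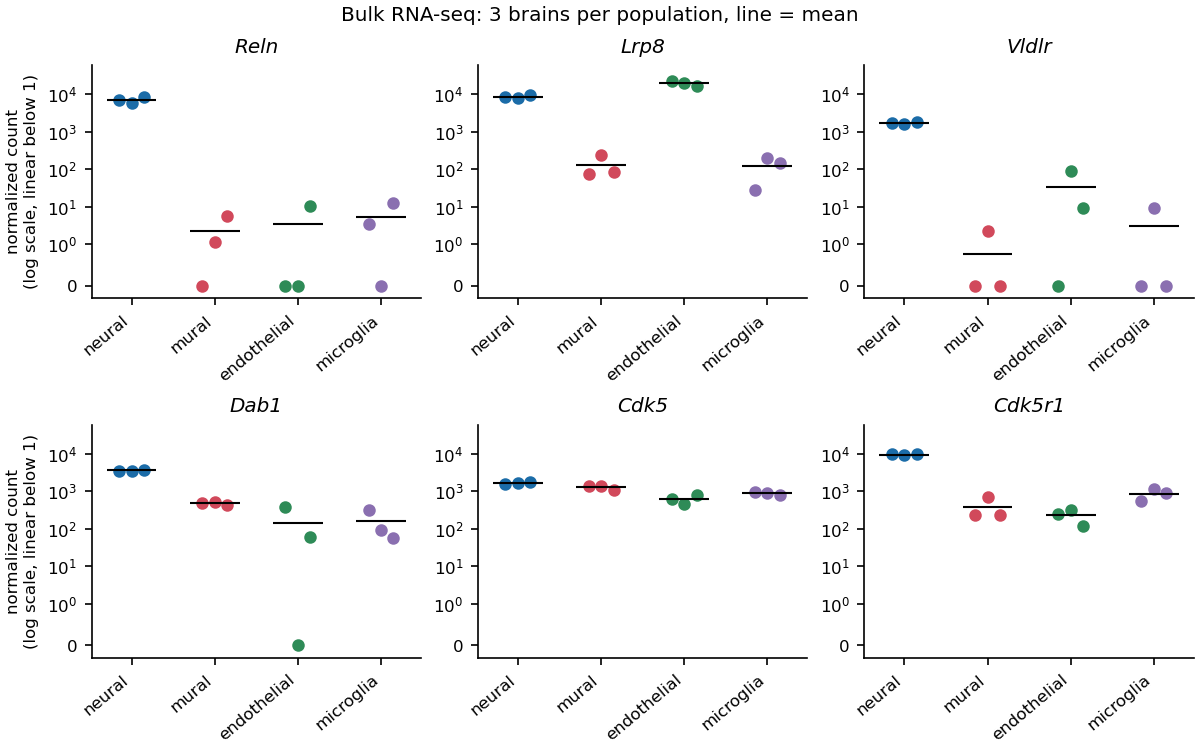
Normalized counts of each gene in the 12 bulk libraries (y axis, log scale that is linear below 1; x axis, population). Points are the 3 brains, from left to right in the order of the text, and lines are means. *Lrp8* is highest in the endothelial libraries (16801 to 22480) and the other genes in the neural ones, with *Cdk5* the least uneven.

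In the single cells too, *Lrp8* was highest in the endothelial gate. A transcript was found in 150 of 225 endothelial cells, or 66.7% (60.1 to 72.8), against 20 of 123 neural cells (16.3%), 7.62% of mural cells and 7.81% of microglia. Endothelial levels were 219, 262 and 142 CPM on the 3 plates, and neural levels 35.4, 28.4 and 10.9 CPM. Every endothelial sum lay above every sum of the other gates. The endothelial level over all plates, 232 CPM, was 7.74 times the neural level of 30.0 CPM, where bulk gave 2.34 times. The step from neural to mural cells was smaller than in bulk, at 2.59 times against 64.3 times, and on plate 3 the mural sum (27.5 CPM, 2 transcripts) lay above the neural one. The 2 assays differ in kit for the neural cells and in what they count, reads along the transcript against 3′ tags, and their part in these gaps was not tested. The endothelial gate was the shallowest of the 4, and after thinning 25.8% of its cells had *Lrp8*, against 4.88% of neural cells, 3.13% of microglia and 1.43% of mural cells.

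*Vldlr* (ENSMUSG00000024924, chromosome 19, 27216484 to 27254231, plus strand), the other Reelin receptor, followed *Reln* and not *Lrp8*. Neural libraries held 1735, 1642 and 1804 normalized counts. The endothelial values were 0, 90.8 and 9.05, and in mural cells and microglia only the second brain gave any reads, worth 2.28 and 9.49. All neural libraries lay above the rest, and the 3 other populations overlapped. The endothelial reads came mostly from the second brain. In single cells, 31 of 123 neural cells (25.2%, 17.8 to 33.8) held a *Vldlr* transcript, against 5 of 210 mural, 3 of 225 endothelial and 1 of 128 microglial cells. Of the 195 mural cells whose markers matched the gate, 1 (0.513%) had it. Neural levels were 68.7 and 61.5 CPM on plates 1 and 2 and 0 on plate 3, whose 14 cells allow a share of up to 23.2%. After thinning the neural share was 5.69%.

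Both receptors were searched for in the same cells. Of the 225 endothelial cells, 148 had *Lrp8* alone, 1 had *Vldlr* alone and 2 had both. Of the 123 neural cells, 15 had *Lrp8* alone, 26 had *Vldlr* alone and 5 had both. At these depths a missing transcript does not show a missing receptor, and no test was made of how often the receptors met. None of the 15 cells with *Reln* had *Lrp8*, whereas 6 had *Vldlr*, 5 had *Dab1* and 13 had *Cdk5r1*.

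**Figure D2:**
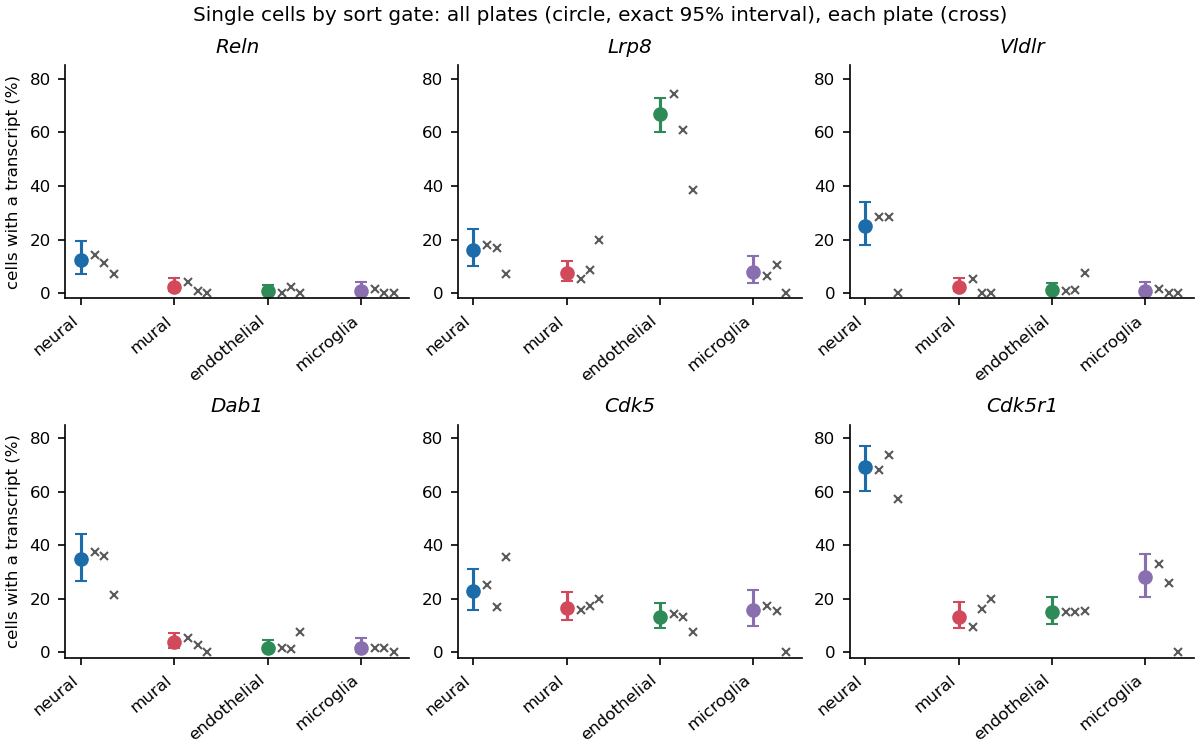
Share of wild-type cells with at least 1 transcript of each gene (y axis, percent; x axis, sort gate). Circles are all plates with exact 95% intervals and crosses are plates 1, 2 and 3. *Lrp8* stands at 66.7% in the endothelial gate and 16.3% in the neural gate, and *Cdk5r1* at 69.1% in the neural gate.

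*Dab1* (ENSMUSG00000028519, chromosome 4, 103619359 to 104744844, plus strand) carries the signal from either receptor into the cell. Neural libraries held 3512, 3524 and 3727 normalized counts and mural libraries 483, 514 and 419. Endothelial values spread from 377 in the first brain to 0 and 58.8 in the others, and microglia held 322, 91.3 and 55.4. The neural libraries lay above all others and the mural ones above the endothelial and microglial ones, which overlapped. The neural mean was 7.60 times the mural mean. The mural libraries are those with the high *Fabp7* given above. Their other 8 progenitor markers summed to 4311 to 7973, against 34758 to 36721 in neural libraries. The part of neural progenitors in the mural *Dab1* level was not tested in bulk.

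In the wells, *Dab1* was found in 43 of 123 neural cells, or 35% (26.6 to 44.1), at 95.2, 125 and 76.6 CPM on the 3 plates. The endothelial gate, where *Lrp8* was highest, had *Dab1* in 4 of 225 cells (1.78%), close to the 2 of 128 microglia, and 2 of its cells held both *Lrp8* and *Dab1*. Mural cells had it in 8 of 210, at 13.5 CPM. Without the cells whose markers did not match the gate, 3 of 195 mural cells (1.54%) remained with *Dab1*, at 2.76 CPM. After thinning, 13.0% of neural cells had a transcript.

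*Cdk5* (ENSMUSG00000028969, chromosome 5, 24418241 to 24423530, minus strand) was the most evenly spread of the 6 genes. Neural libraries held 1576, 1683 and 1752 normalized counts, mural libraries 1345, 1371 and 1094, microglia 960, 868 and 778, and endothelial libraries 602, 443 and 772. The ranges did not overlap between neighbours in this order, though the lowest microglial library (778) and the highest endothelial one (772) were nearly equal. The neural mean was only 1.32 times the mural and 2.76 times the endothelial mean. With quantile normalization, which moved the median of all genes in the neural contrast from 0.09 to -0.16 on the log2 scale, the neural difference of *Cdk5* from the mean of the others went from 0.95 to 0.62. In single cells the shares were 22.8% of neural cells (15.7 to 31.2), 16.7% of mural cells, 15.6% of microglia and 13.3% of endothelial cells. Their intervals overlapped, but shares depend on depth. The summed levels were 43.5 CPM in neural cells (exact Poisson 95% interval 31.3 to 58.8), 25.8 in mural (18.4 to 35.1), 21.6 in endothelial (15.1 to 29.9) and 17.5 in microglial cells (11.2 to 26.1). The neural level was the highest on 3 of 3 plates, at 46.5, 30.8 and 87.6 CPM.

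*Cdk5r1* (ENSMUSG00000048895, chromosome 11, 80477023 to 80481184, plus strand) encodes p35, an activator of CDK5. Neural libraries held 9525, 9164 and 9815 normalized counts. Microglia held 543, 1119 and 879, mural cells 227, 689 and 237, and endothelial cells 246, 311 and 116. Neural libraries stood above all others, while the ranges of neighbouring populations below them overlapped. The neural mean was 11.2 times the microglial mean. In the wells, 85 of 123 neural cells (69.1%, 60.1 to 77.1) had a transcript, at 412, 460 and 230 CPM on the plates, against 28.1% of microglia, 15.1% of endothelial and 13.3% of mural cells. Microglia were also the deepest cells, and after thinning the shares were 37.4% in neural cells and 10.9% in microglia.

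Normalized counts per kb of exon allow a rough comparison of genes, since the length was taken over all annotated exons and not over 1 transcript. On that scale neural cells held *Cdk5r1* at 2283 ± 78.4 (SD, n = 3), *Lrp8* at 812 ± 75.9, *Cdk5* at 771 ± 41.0, *Dab1* at 454 ± 15.3, *Reln* at 301 ± 56.3 and *Vldlr* at 172 ± 8.04. *Lrp8* and *Cdk5* did not differ beyond their spread, and the other steps were larger than the SDs. These SDs do not cover error in the length, so the order of the genes is approximate. In endothelial cells *Lrp8* reached 1903 ± 277 per kb, *Cdk5* 279 ± 76.0 and *Cdk5r1* 53.9 ± 23.8, with *Dab1*, *Vldlr* and *Reln* at 18.4, 3.31 and 0.148. Endothelial cells thus held 1 Reelin receptor at a high level with little of the other receptor or of the adaptor. Relative to the mean of the other 3 populations, on the log2(normalized count + 1) scale of the limma fit, the neural differences were 11.31 ± 0.98 (SE) for *Reln*, 9.09 ± 1.20 for *Vldlr*, 4.94 ± 1.33 for *Dab1*, 4.63 ± 0.39 for *Cdk5r1* and 0.95 ± 0.17 for *Cdk5*. The sizes for *Reln* and *Vldlr* depend on the pseudocount, because most libraries of the other populations held values at or near 0. With the larger pseudocount given below, both differences fell by more than their SEs, which do not cover this dependence. The endothelial difference of *Lrp8* was 5.44 ± 0.52 and its neural difference 3.81 ± 0.52.

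The genes whose pattern over the 12 libraries was most like that of each member were found by Pearson r of log2(normalized count + 1). For *Reln* these were *Magel2* (r = 0.989), *Myo5b* and *Elmod1*, all near 0 outside neural cells. For *Lrp8* they were *Cyp4x1* (0.981), *Acr* and *Bcl2*, which share its order of endothelial above neural. For *Vldlr* they were *Retreg3* (0.987), *Atxn7l3* and *Pip5k1c*, for *Dab1* *Hist3h2ba* (0.974), *Ckap5* and *Ube2d1*, for *Cdk5* *Cntnap2* (0.985), *Epha5* and *Ank2*, and for *Cdk5r1* *Insig1* (0.993), *Med13* and *Sema4g*. The libraries share populations and kits, so these r values describe likeness only.

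Inside the neural gate *Cdk5r1* was higher in neurons than in progenitors. Of the other members, *Reln* was called only under some alternatives, given below with their counts. Cells were called neuron-range when the mean signal of 10 young neuron markers exceeded that of 9 progenitor markers and progenitor-range otherwise, which gave 89 and 34 cells of like depth (medians of 7717 and 7860 transcripts). Within 0.25 log2 units of the limit lay 5 and 4 of them. Transcripts were summed per plate and class, and edgeR's quasi-likelihood test was run over 2018 genes, of which 10.1% were called higher in neuron-range cells, 5.0% lower and 15.1% in all. Of the 6 genes, 3 passed the filter on low counts (*Reln*, *Dab1* and *Cdk5r1*) and 1 was called.

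*Cdk5r1* was 13.6-fold higher in neuron-range cells (log2 difference 3.77, SE 0.40, 95% interval of the fold 7.43 to 25, edgeR adjusted p = 0.000138). Neuron-range sums held 575, 588 and 280 CPM on plates 1, 2 and 3, and progenitor-range sums 49.9, 30.8 and 0. The difference had the same direction on 3 of 3 plates and the classes did not overlap. *Cdk5r1* passed the filter on low counts through the neuron-range sums, which held 179, 191 and 21 transcripts, against 7, 3 and 0 in the progenitor-range sums, so that it passed only through the class where it was high. With no filter it was also called (log2 3.79, edgeR adjusted p = 4.11e-08). A transcript was found in 86.5% of neuron-range and 23.5% of progenitor-range cells.

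*Dab1* did not differ detectably, with 109, 126 and 93.4 CPM in neuron-range sums and 64.1, 123 and 0 in progenitor-range ones (log2 difference 0.54, 95% interval -0.40 to 1.49, edgeR adjusted p = 0.462). The classes overlapped, and the plate 3 progenitor sum held only 3 cells. The share of cells with *Dab1* was 32.6% in neuron-range and 41.2% in progenitor-range cells.

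For *Reln* the neuron-range sums were 116, 108 and 0 CPM and the progenitor-range sums 0, 0 and 244. The last of these was 4 transcripts in 1 of the 3 progenitor-range cells of plate 3. The difference was not called (log2 2.5, 95% interval -0.07 to 5.08, edgeR adjusted p = 0.194), although it was with all plates when no filter on low counts was set (log2 2.46, adjusted p = 0.0262). Without plate 3 it was called as well (adjusted p = 0.000653), but the progenitor-range sums then held 0 transcripts, so that the fit compares with a count of 0.

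*Lrp8*, *Vldlr* and *Cdk5* were too low for the filter and are given as levels. *Lrp8* held 22.5, 33.8 and 0 CPM in neuron-range sums of plates 1, 2 and 3 and 64.1, 10.3 and 61.1 in progenitor-range sums, with 18 and 11 transcripts in all. The plates ran in unlike directions, and 9 of the 11 progenitor-range transcripts came from plate 1. Over all plates *Vldlr* held 73.1 CPM in neuron-range and 19.7 in progenitor-range cells and *Cdk5* 54.8 and 11.8, the progenitor-range values resting on 5 and 3 transcripts, all from plate 1. With no filter, none of the 3 was called by edgeR (adjusted p = 0.718, 0.139 and 0.0886).

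**Figure D3:**
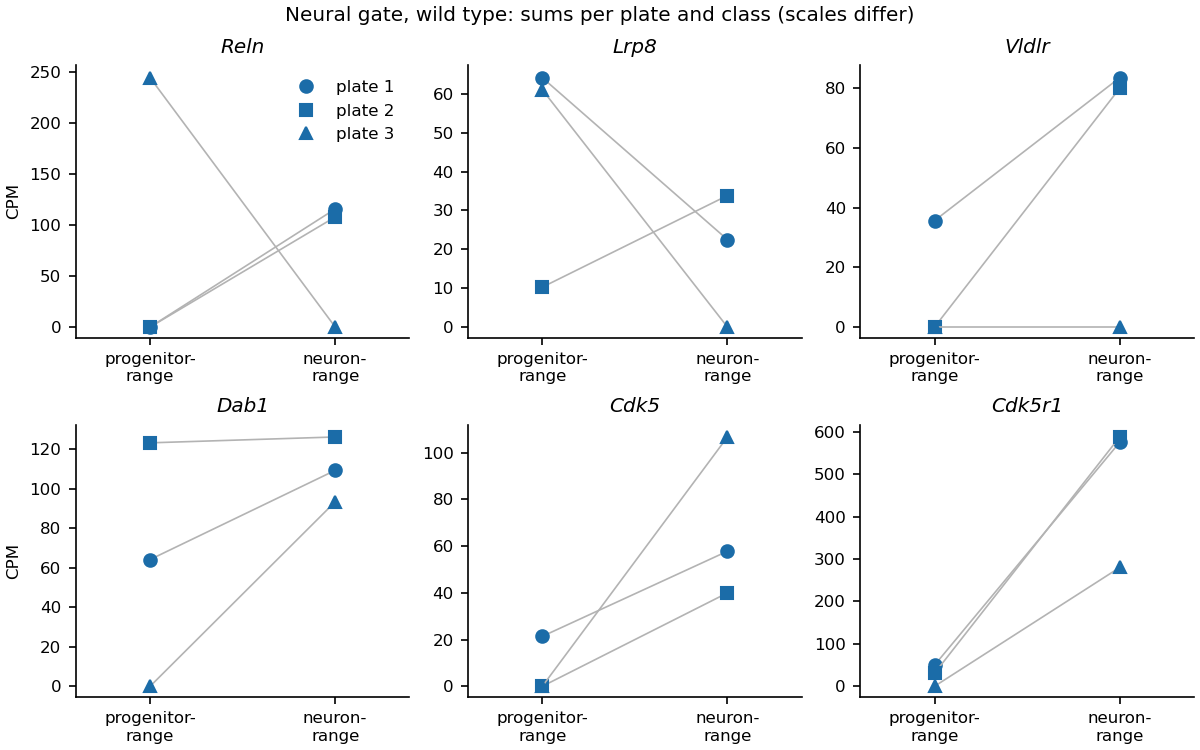
CPM of each gene in sums of progenitor-range and neuron-range cells of the wild-type neural gate (y axis; scales differ between panels). Symbols are plates and grey lines join the sums of a plate. *Cdk5r1* rises on all 3 plates, and *Reln* runs the other way on plate 3, where the progenitor-range sum holds 3 cells.

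*Mof*, now *Kat8*, encodes a histone H4 lysine 16 acetyltransferase, and the plates labelled knockout (numbers 4 to 6) were compared with the wild-type plates in neural-like cells, named by their markers in both genotypes. Wild-type plates held 82, 60 and 15 such cells and the plates labelled knockout 61, 112 and 38. Of the wild-type cells 121 came from the neural, 15 from the mural and 6 from the endothelial gate, and 15 from wells sorted as PDGFRβ medium or low. Genotype and plate cannot be told apart in this design, and no source ties plates to single animals, so p-values measure the spread between plates. *Kat8* was found at 24.7, 28.9 and 10.4 CPM on wild-type plates and at 5.06, 7.65 and 27.0 on those labelled knockout (log2 difference -1.13, SE 0.61, edgeR adjusted p = 0.916). Plates 4 and 5 of those labelled knockout lay below all wild-type plates and plate 6 did not. The 3′ tags may lie outside the deleted part, so *Kat8* does not check the labels, and the plates are called by their labels.

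None of the 6 genes was called in cells labelled knockout, where edgeR called 0 (0%) of 7518 genes, with 339 at an unadjusted p under 0.05, and DESeq2 called 2, neither of them a member. *Reln* held 60.2, 82.7 and 41.7 CPM on wild-type plates and 35.4, 26.2 and 65.7 on those labelled knockout, with overlapping ranges (log2 difference -0.70, 95% interval -1.57 to 0.18). *Lrp8* held 29.3, 24.8 and 0 CPM on wild-type plates and 35.4, 31.7 and 42.5 on those labelled knockout, which all lay above, and the difference of 0.67 (-0.40 to 1.74) was not called. *Vldlr* differed by 0.62 (-0.48 to 1.73), *Dab1* by 0.19 (-0.40 to 0.79) and *Cdk5* by -0.79 (-1.90 to 0.33). The edgeR adjusted p of the 6 genes ran from 0.916 to 0.944. With wild-type cells of the neural gate only, an alternative added after seeing the data, none was called either, and the differences ran from -0.87 for *Reln* to 0.53 for *Vldlr*. These intervals leave room for changes of more than 2-fold in *Reln*, *Lrp8*, *Vldlr*, *Cdk5* and *Cdk5r1*, and not in *Dab1*.

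*Cdk5r1* was lowest on plate 4. It held 333, 440 and 229 CPM on wild-type plates and 45.5, 282 and 440 on plates 4, 5 and 6 (log2 difference -0.45, 95% interval -1.83 to 0.93). On plate 4, 3.28% of the neural-like cells were neuron-range, against 56.3% and 71.1% on plates 5 and 6. On the wild-type plates the share was 54.9%, 71.7% and 80%, and the plate with the highest share, plate 3, had the lowest *Cdk5r1* of these. Without plate 4 the difference was 0.036. In neuron-range cells alone, an alternative added after seeing the data, it was 0.13. Plate 4 held 2 such cells, under the minimum of 3 per sum, so that fit left out plate 4 as well. The part of the neuron-range share in the low value of plate 4 was not tested. Neuron-range cells of plates 5 and 6 held 533 and 594 CPM of *Cdk5r1*, and progenitor-range cells of plates 4, 5 and 6 held 36.2, 24.4 and 129 CPM.

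Of the plates labelled knockout, 1 held endothelial-like cells in number, plate 6. There *Lrp8* was present in 145 of 297 cells (48.8%, 43.0 to 54.7) at 187 CPM, against 14.0 CPM in 12 mural-like and 42.5 CPM in 38 neural-like cells of that plate. With 1 plate there is no test, and these cells were not used to choose the genes.

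**Figure D4:**
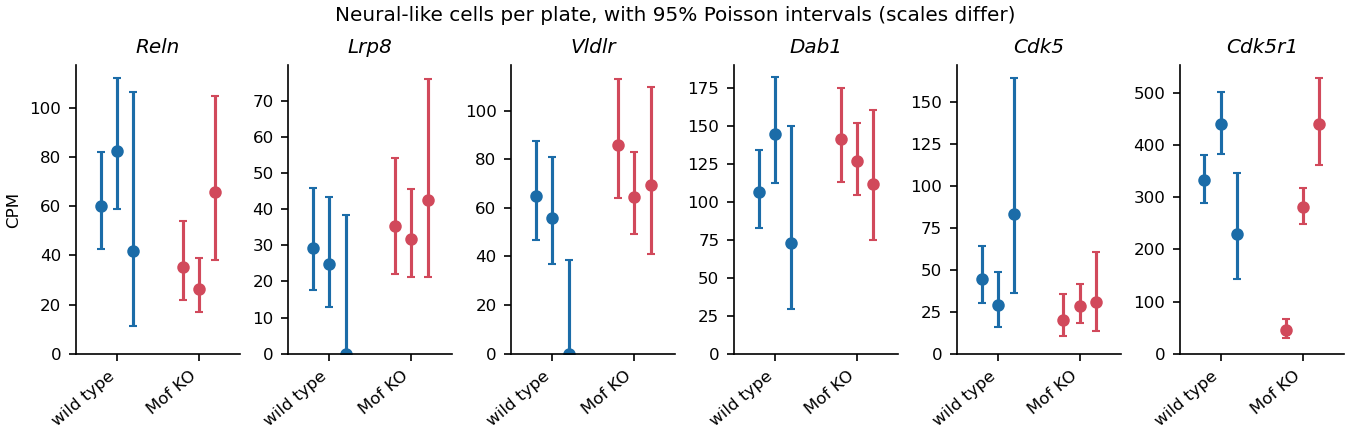
CPM of each gene in neural-like cells (y axis; scales differ), for wild-type plates 1 to 3 and plates 4 to 6 labelled knockout, from left to right. Points are plates with 95% Poisson intervals of their counts. Points of the genotypes overlap for every gene shown except *Lrp8*, and the low *Cdk5r1* value of 45.5 is plate 4.

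The other genes of the pathway were read from 4 lists with 57 genes. The lists were drawn up with earlier results of these data known, so the calls below are not an independent test. In bulk, limma called a gene at an adjusted p under 0.05 and at least a 2-fold difference from the mean of the other populations. Neural cells had 30 of 57 genes higher and 13 lower, a share of 52.6% higher where 29.0% of all 19765 genes were called higher. The median difference was 1.09 on the log2 scale, against 0.09 over all genes. In either direction 55.4% of all genes were called. Mural cells had 10 higher and 13 lower, where 13.5% of all genes were higher and 32.1% called in either direction. Endothelial cells had 9 and 14 (15.4% and 33.7%), and without the first, the second or the third brain the 14 came to 9, 10 or 9. Counts in microglia were 12 and 20 (18.5% and 37.2%). The list medians of these 3 populations were -0.17, -0.03 and -0.62. A population held a gene at 0 in all its libraries for 5 of the 57, and with those set to the floor of 3 reads the medians were 1.09, -0.17, -0.03 and -0.65.

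Among single cells the neural excess was not seen. Of the 57 genes, 44 passed edgeR's filter in the sums per plate and gate, and 8 were called higher in neural cells and 9 lower, a share of 18.2% higher where 18.1% of all 9281 genes were higher, 15.3% lower and 33.5% called in either direction. Mural cells had 10 higher and 2 lower, beside 11.6% and 6.44% of all genes, and endothelial cells 11 and 2, beside 13.7% and 4.99%. Without plate 1 the 11 came to 7, without plate 2 each 2 came to 1, without plate 1 the mural 2 came to 1, and without plate 3 the endothelial 2 came to 4. Microglia had 9 higher and 15 lower, beside 17.1% and 19.2% of all genes, or 36.3% in either direction. Of the 44 genes tested in both, 20 were higher in neural cells in bulk, and of these 7 were also higher in the wells and 13 were not called. The 7 were *Cdh2*, *Dcx*, *Efnb2*, *Efnb3*, *Mapt*, *Socs7* and *Stmn1*. No gene of the lists was called in opposite directions by the 2 assays.

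**Figure D5:**
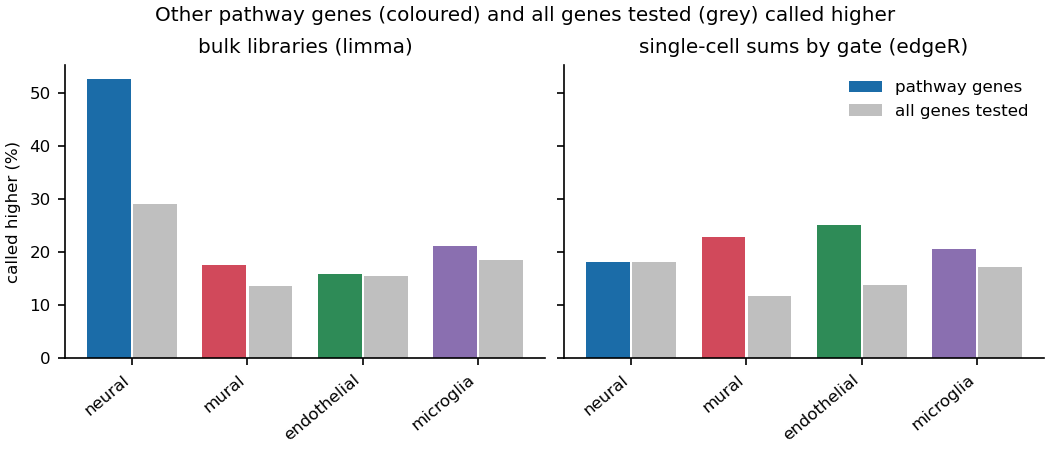
Percent of the other pathway genes (coloured) and of all genes tested (grey) called higher in each population (y axis), in bulk libraries (left) and in single-cell sums (right). The neural bars stand at 52.6% and 29.0% in bulk and at 18.2% and 18.1% in single cells.

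Ligands of the Reelin receptors and proteases that cut Reelin are described from bulk, as are the receptors and downstream genes after them. *Adamts3*, *Lrp2*, *Itga3* and *Cdk5r2* did not pass the filter in the wells. *Apoe*, a ligand of ApoER2 and VLDLR, was a microglial transcript, with a mean of 234915 normalized counts there and 386 in neural cells (log2 difference in microglia 6.60, limma adjusted p = 2.57e-11). *Selenop*, a selenium carrier taken up through ApoER2, fell by 6.50 in neural cells. *Adamts3*, a protease that cleaves Reelin, averaged 633 normalized counts in neural cells (limma adjusted p = 0.000315) and was listed at 0 in all endothelial libraries (0.00573). Mural and microglial libraries together ran from 0 to 72.5, so the 0 was not particular to endothelial cells. *Plat*, which encodes tissue plasminogen activator, was highest in mural cells (log2 difference 5.10). *Adamts4* was called higher in endothelial cells (3.16), at 317 to 1437 normalized counts. The highest library elsewhere held 411, so the ranges overlapped.

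Among receptors, *Lrp2* averaged 345 normalized counts in neural cells and at most 3.20 elsewhere. *Efnb3*, an ephrin proposed to act with the Reelin receptors, was higher in neural cells by 5.16. *Lrp1*, another receptor of the LDL receptor family, was lower in endothelial cells by a log2 difference of -5.14, the population with the most *Lrp8*. *Itga3*, a Reelin-binding integrin subunit, was called higher there by 4.45, at 320 to 571 normalized counts. The highest library elsewhere held 334, so the ranges overlapped, and all microglial libraries were listed at 0. *Mylip*, which encodes the ubiquitin ligase IDOL that degrades ApoER2 and VLDLR, was higher in microglia by 4.43 and lower in neural cells (log2 difference -4.31).

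Downstream of the receptors, *Dab2*, a relative of *Dab1*, ran opposite to it, with 12081 normalized counts in microglia, 3193 in endothelial, 297 in mural and 97.3 in neural cells. *Nck2*, an adaptor that binds DAB1, was higher in bulk by 4.29 in neural cells and by 2.39 in mural cells. In the wells its neural difference was 0.26 (edgeR adjusted p = 0.678), and it was called higher in mural cells by 2.88. *Socs7*, which takes part in the turnover of DAB1, was higher in neural cells by 3.60 in bulk. *Cdh2* (N-cadherin), which the pathway regulates in migrating neurons, averaged 9856 in neural and 9838 in endothelial cells and 74.9 in microglia. In the kinase branch, *Cdk5r2*, which encodes the other CDK5 activator p39, averaged 685 in neural cells and was listed at 0 in all endothelial libraries. Its mural and microglial libraries together ran from 0 to 23.2. The CDK5 substrates *Mapt* (tau) and *Dcx* averaged 13679 and 34247 in neural cells and at most 263 and 739 elsewhere, and *Mapt* was higher by 6.11. *Ptk2*, focal adhesion kinase and another CDK5 substrate, was higher in mural cells by 3.31.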

How the data were processed

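Members and lists were chosen with earlier results of these data known. The deposited bulk values are normalized counts, a signal on a linear scale made by the authors. Per the labels' processing notes, BWA 0.6.2-r126, STAR, featureCounts, DESeq2 and mm10 were used, with roles not given. Each value was a whole number of reads divided by a factor per library, since 100% of 124078 values up to 100 reads were whole within 0.01. The deposited single-cell values are expected transcript counts, other than raw counts in that identifiers drawn more than once out of 4096 are corrected for. All values followed that formula.

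Symbols, coordinates and exon lengths came from GENCODE vM21, which holds 53274 of the 53465 genes. In bulk, limma 3.58.1 (R 4.3.3) compared each population with the mean of the other 3 on the log2(normalized count + 1) scale, for genes with a mean of at least 10. Sums of rounded transcript counts per plate were compared with edgeR 4.0.16 (TMM, filterByExpr), with DESeq2 1.42.0 as an alternative. P-values are two-sided and Benjamini-Hochberg adjusted over all genes tested. Cells needed over 1500 transcripts without spike-ins, and each well held 1 sorted cell, so no doublet caller was run. Python 3.11.15, numpy 2.4.6, pandas 2.3.3, scipy 1.17.1 and matplotlib 3.10.9 were used.

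Named genes are the members and, per list and population, the 3 called genes with the largest bulk difference, from which examples are given, and per member the 3 genes of highest r. Bulk libraries of 1 brain share an animal. Their residual correlation ran from -0.05 to 0.08 over 18 pairs, and that of other pairs from -0.07 to 0.05. Within populations Spearman's rho was 0.895 to 0.997. On simulated data limma called 9 of 67 genes changed 2.5-fold in bulk and 45 of 66 changed 16-fold among 20050 genes. For the neuron-range contrast edgeR called 98 of 100 genes changed 4-fold among 2947, and for the knockout contrast 74 of 100 among 7132. Alternatives covered pseudocount, filters, normalization, tool, blocks for brain or plate, depth, thinning, and each replicate left out.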

Additional observations from a re-analysis of the deposited data

Results flagged for a closer look

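Wells sorted as PDGFRβ medium or low belong to none of the 4 gates and entered none of the values by gate above. In the comparison with cells labelled knockout, 15 of them were among the wild-type neural-like cells. Their 23 cells with more than 1500 transcripts, of 25 wells, held transcripts of 3 members above the level that a count of 0 allows. *Dab1* had 26 transcripts in 10 of the 23 cells (43.5%, exact 95% interval 23.2 to 65.5), at 158 CPM, against 13.5 CPM in the mural gate and 107 CPM (35% of cells) in the neural gate. *Cdk5* and *Cdk5r1* had 6 transcripts each, in 5 of 23 cells. *Reln* had 0, which allows a share of up to 14.8%. By their markers, 15 of the 23 cells were neural-like.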

How the results depend on the processing

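With a limit of 10-fold in place of 2-fold, the pathway genes called higher and lower in bulk were 13 and 4 in neural cells (13.8% and 10% of all genes), 1 and 0 in mural cells (4.99% and 5.15%), 5 and 8 in microglia (8.27% and 7.45%), 1 and 4 in endothelial cells (6.28% and 7.16%). In single-cell sums they were 3 and 4 in neural (5.16% and 4.9%), 1 and 0 in mural (2.96% and 0.711%), 0 and 1 in endothelial (3.02% and 0.485%) and 3 and 9 in microglial cells (4.61% and 7.63%). With each replicate left out in turn, the bulk endothelial count lower ran from 9 to 10 (14 with all), and in single-cell sums the mural count lower from 1 to 3, the endothelial count higher from 7 to 13 and lower from 1 to 4. DESeq2 gave 1 for the last. The block, which pairs bulk libraries of a brain and single-cell sums of a plate, left the neural bulk counts at 30 and 13 and *Cdk5r1* called between neuron-range and progenitor-range cells (log2 difference 3.88). With it, 1 bulk pathway call was lost (mural lower, 12 for 13) and 1 gained (endothelial lower, 15 for 14), and no other call on a pathway gene or member changed. Run on the recovered reads, edgeR called 10755 of 20752 genes in neural cells, where limma called 10941. Without the mural libraries, an alternative added after seeing the data, neural counts were 30 and 12.

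With a pseudocount of 10 the neural difference fell to 9.08 for *Reln* and 6.83 for *Vldlr*, and quantile normalization gave 0.62 for *Cdk5*. Shares of cells depend on depth. Thinned to 1500 transcripts, neural shares were 4.88% for *Reln*, 5.69% for *Vldlr*, 13.0% for *Dab1*, 6.50% for *Cdk5* and 37.4% for *Cdk5r1*, mural shares 0.952% for *Dab1* and 6.19% for *Cdk5*, and the endothelial share of *Lrp8* 25.8%. Over all gated wells they were 15.7% for *Vldlr*, 22.3% for *Dab1*, 14.2% for *Cdk5* and 45.7% for *Cdk5r1* in neural cells, 11.9% for *Cdk5* in mural cells and 41.8% for *Lrp8* in endothelial cells. The *Lrp8* share ran from 58.1% to 70.7% with each plate left out. Without cells whose markers did not match the gate, the mural *Dab1* share was 1.54%.

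Between neuron-range and progenitor-range cells, *Reln* was called with cells near the limit left out (7.17), with no filter (2.46), with over 3000 transcripts (7.15) and without plate 3, and 2 members were then called. With each plate left out its difference ran from 0.80 to 7.62. Apart from the fit with no filter, these calls compare with 0 transcripts in the progenitor-range sums, so their size depends on the prior count and they do not support a difference. For *Cdk5r1* in cells labelled knockout, the difference ran from -0.98 to 0.036 with each plate left out. It was 0.13 in neuron-range cells alone, a fit that also lacked plate 4. No paired analysis was possible for the knockout, because the genotypes share no plate numbers. The cause of these moves was not tested beyond what is named. Of the other values, 358 kept their direction and side of the threshold or stayed within their spread.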
